A study of Mus musculus with 4 samples.

Results

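The Hox genes encode homeobox transcription factors that give cells along the head-to-tail axis their regional identity. In the mouse they lie in 4 clusters, A on chromosome 6, B on chromosome 11, C on chromosome 15 and D on chromosome 2, and genes at the same place in different clusters form paralogue groups numbered 1 to 13. Low group numbers are expressed first and furthest forward, in the hindbrain, and high numbers later and towards the tail; the forebrain and midbrain normally lack Hox expression. Retinoic acid, bound by the retinoic acid receptors (RAR alpha, beta and gamma), is a well known activator of the 3′ genes of the clusters, those of low number. The members were chosen by symbol. Of 38 Hox genes looked for, 31 had a row in all 4 sections, among 22218 symbols listed in any section. The other 7, HOXA4, HOXA5, HOXA6, HOXB5, HOXB6, HOXD4 and HOXD8, had no row and are not analysed here. In the RefSeq annotation of GRCm38.p6, 6 of those 7 lie within the span of a transcript that does have a row: HOXA4, HOXA5 and HOXA6 within HOXA3, HOXB5 and HOXB6 within HOXB5OS, and HOXD4 within HOXD3.

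The sections came from mouse brain organoids, three-dimensional aggregates grown from embryonic stem cells for 3 months, and were captured on in-house poly-T arrays whose spots each hold a small region of tissue. All organoids were started from 5000 cells per well with SB 431542, an inhibitor of TGF-beta type I receptors, moved through neural induction medium and Matrigel, and kept in maturation medium with B27 lacking vitamin A until day 9. From day 9 the VitaminA organoids received B27 with vitamin A, a precursor that cells convert to retinoic acid. The labels give B27 at 2% for every treatment. The ATRA organoids received 1 µM all-trans retinoic acid, which activates all RARs, the BMS753 organoids 1 µM of that RAR alpha agonist, and the BMS961+BMS641 organoids a gamma and a beta agonist together at 0.1 µM, so the pair was given at a lower concentration than the other ligands. The stem cell line and the number of organoids in a section were not stated. There was 1 section per treatment, so no difference between treatments has a replicate check, no p-value is given, and spread between quadrants of a section describes only that section.

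The sections held 552 spots (VitaminA), 593 (ATRA), 469 (BMS753) and 365 (BMS961+BMS641). The deposited values are a signal that the authors made equal in distribution over the spots of a section. In each spot the lowest positive values rise with the order of the genes in the table and run into the zeros, so within this lowest class a value depends on a gene's place in the table. A gene was therefore counted as detected in a spot where it stood above the lowest class, and the share of spots with detection is given first. A spot had a median of 4659 detected genes for VitaminA, 3388 for ATRA, 3330 for BMS753 and 4462 for BMS961+BMS641, so ATRA and BMS753 had the lower depth. Levels are the mean signal in ppm, the share of the section's summed signal in parts per 1e6. A spot with a larger factor weighs more in this mean. Where the lowest class carried much of a level, the level with that class set to 0 stands beside it. Exact binomial 95% intervals are given for some shares and cover counting error over spots only.

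Across all genes, detection followed the genomic span of a gene, with a Spearman correlation between 0.799 and 0.837 in the 4 sections, and among the 31 Hox genes between 0.365 and 0.601. This is a description over genes of the same libraries. Neurons, by a list of 6 marker genes, had a median marker share of 48.7% of spots for VitaminA, 25.2% for ATRA, 35.3% for BMS753 and 51.8% for BMS961+BMS641. The 5 epithelial markers had 34.1%, 20.6%, 10.4% and 83.6% in the same order, with a summed level of 167.5, 119.0, 194.8 and 1586 ppm. The 4 pluripotency markers summed to 67.0 ppm in VitaminA and to between 11.7 and 16.0 ppm in the others. All 8 mesenchyme markers had a row, with median shares between 12.9% and 22.7%. In none of these lists was a listed marker undetected throughout a section. The part of other cell types in the Hox values was not tested, and a spot's signal cannot tell fewer cells of a type from less RNA per cell.

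Hox transcripts were present in most spots of every section. At least 1 of the 31 genes was detected in 97.1% of VitaminA spots, 93.4% of ATRA spots, 79.3% of BMS753 spots and 96.7% of BMS961+BMS641 spots. Most single genes were sparse. The median Hox gene was detected in 7.43%, 4.05%, 3.62% and 5.21% of spots, below the median over all listed genes of 11.6%, 8.26%, 9.38% and 12.1%. The number of Hox genes detected in at least 5% of spots was 22 for VitaminA, 14 for ATRA, 13 for BMS753 and 16 for BMS961+BMS641, all of 31. Over all listed genes, 70.1%, 61.0%, 64.5% and 68.4% reached that share, so the VitaminA count was near that of all genes and the others were below it. At 20% of spots the numbers were 5, 5, 2 and 4, where 35.3%, 28.6%, 29.9% and 37.7% of all genes reached it. The summed Hox level was 318.2 ppm for VitaminA, 413.1 ppm for ATRA, 309.7 ppm for BMS753 and 334.3 ppm for BMS961+BMS641. With the lowest class at 0 it was 316.9, 392.8, 249.4 and 298.3 ppm, so BMS753 lost the most.

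**Figure D1:**
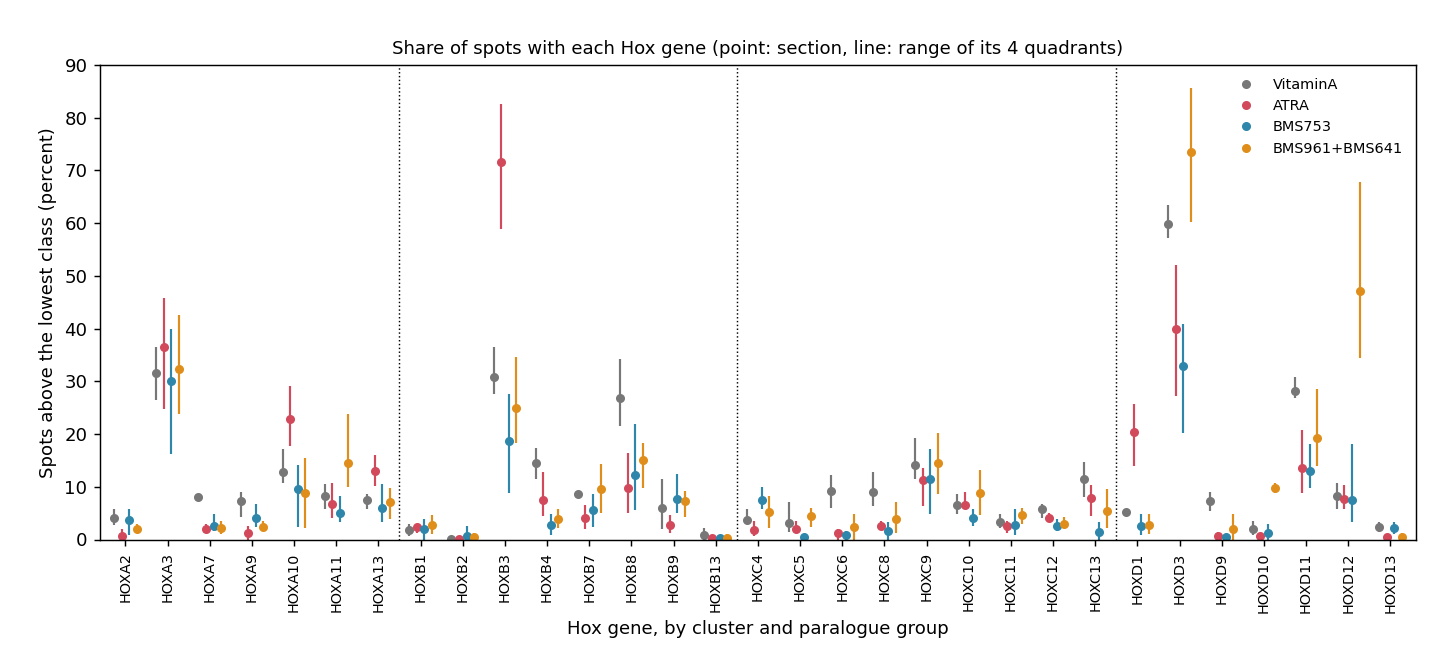
Percent of spots in which each of the 31 Hox genes stood above the lowest class (y axis), with genes on the x axis in order of cluster and paralogue group. Points are the 4 sections and lines run from the lowest to the highest of a section's 4 quadrants. HOXB3 in ATRA (71.7%), HOXD3 in BMS961+BMS641 (73.4%) and HOXD12 in BMS961+BMS641 (47.1%) stand well above the same genes in most other sections.

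Paralogue group 3 held the largest share of the Hox signal in every section. Its 3 genes, HOXA3, HOXB3 and HOXD3, pattern the hindbrain and the neural crest of the pharyngeal arches. Together they made up 41.9% of the summed Hox level for VitaminA, 63.4% for ATRA, 37.8% for BMS753 and 45.8% for BMS961+BMS641. With the lowest class at 0 the shares were 43.6%, 70.6%, 48.9% and 52.6%. At least 1 of them was detected in 81.0%, 82.6%, 55.9% and 81.4% of spots. These are also the longest members, with spans of 36.3 to 44.0 kb against 1.78 to 18.8 kb for the other listed genes. Per kilobase of span, group 3 was detected in 0.460% to 2.02% of spots. Some members stood higher, such as HOXD12 in BMS961+BMS641 (17.5% per kb), HOXD1 in ATRA (9.43% per kb) and HOXA13 in ATRA (6.40% per kb). Others stood below every group 3 gene of the same section, such as HOXC4 in VitaminA (0.193% per kb) and HOXC6 in ATRA (0.0864% per kb).

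**Figure D2:**
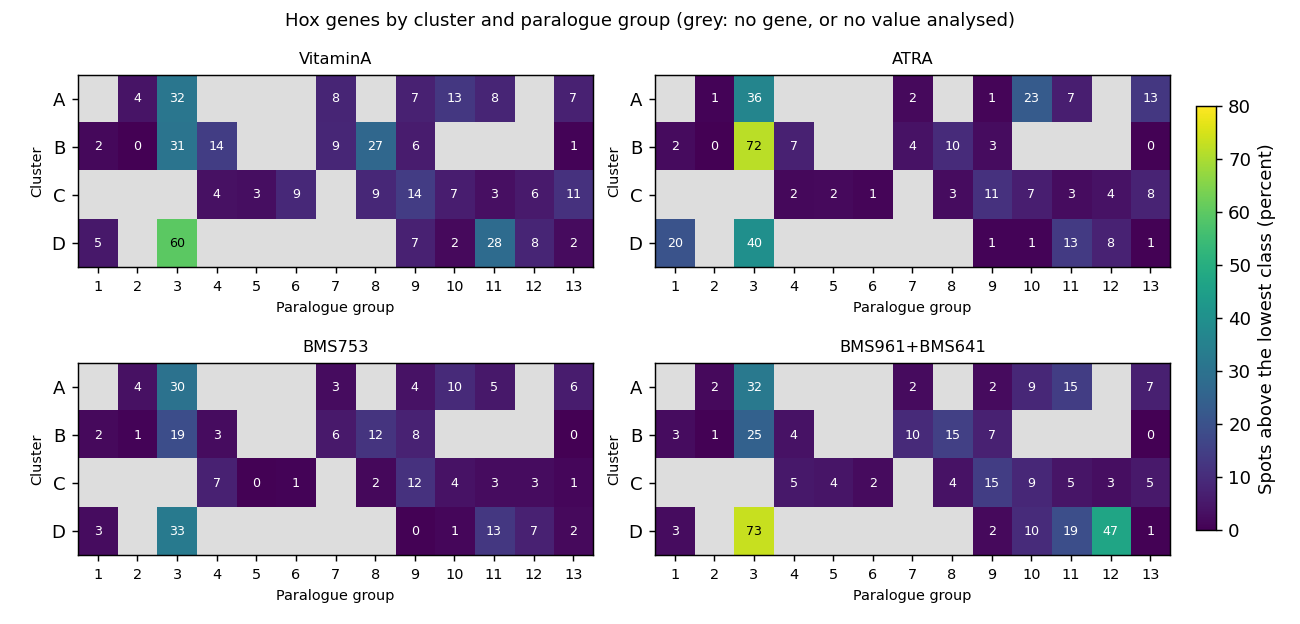
Percent of spots with each Hox gene, with clusters A to D as rows and paralogue groups 1 to 13 as columns, one panel per section. Colour and printed numbers give the same percent, and grey cells have no gene or no value analysed. The column of group 3 is the brightest in all panels, and the cell of HOXD12 stands out in the BMS961+BMS641 panel.

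HOXB3 was the Hox gene with the largest difference between sections. It was detected in 30.8% of VitaminA spots (95% interval 27% to 34.8%), 71.7% of ATRA spots (67.9% to 75.3%), 18.8% of BMS753 spots (15.3% to 22.6%) and 24.9% of BMS961+BMS641 spots (20.6% to 29.7%). Its level was 20.5 ppm for VitaminA, 169.8 ppm for ATRA, 11.9 ppm for BMS753 and 12.1 ppm for BMS961+BMS641. ATRA stood apart: its lowest quadrant, at 58.9% of spots, was above the highest quadrant of any other section, 36.6% in VitaminA. The log2 ratio of ATRA to VitaminA was 2.99, with a range of 2.60 to 3.44 over the 16 pairs of quadrants, and 1.99% of all genes compared had a higher ratio. Among the 1000 highest genes of a spot, HOXB3 was found in 33.4% of ATRA spots and in at most 0.548% of spots elsewhere. Against ATRA, given at the same concentration, HOXB3 in BMS753 had a log2 ratio of -3.73 (-4.29 to -3.05). BMS961+BMS641, given at the lower concentration, stood at 12.1 ppm beside the 169.8 ppm of ATRA.

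The HOXB3 span overlaps other transcripts of its cluster. HOXB4 lies within it, and the transcript HOXB3OS overlaps it. Whether reads were assigned by strand is not stated in the sources used, so the division of reads among these rows is uncertain. HOXB4, a hindbrain and spinal cord gene, did not share the ATRA pattern: it was detected in 14.5% of spots for VitaminA, 7.42% for ATRA, 2.77% for BMS753 and 3.84% for BMS961+BMS641. HOXB3OS was detected in 8.51%, 23.3%, 29.6% and 11.2% of spots in that order, so its highest share was in BMS753, where HOXB3 had its lowest. With the lowest class at 0 its level was 11.7 ppm for VitaminA, 35.4 ppm for ATRA, 66.0 ppm for BMS753 and 7.39 ppm for BMS961+BMS641.

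HOXD3 had a different order. It was detected in 59.8% of VitaminA spots (55.6% to 63.9%), 39.97% of ATRA spots (36% to 44%), 32.8% of BMS753 spots (28.6% to 37.3%) and 73.4% of BMS961+BMS641 spots (68.6% to 77.9%). Its level was 74.6 ppm, 44.0 ppm, 49.1 ppm and 107.9 ppm. The pair of agonists thus had the highest value and ATRA and BMS753 the lowest, and these last are also the sections of lower depth. Against VitaminA the log2 ratio was -0.75 for ATRA (-1.29 to -0.37), -0.59 for BMS753 (-0.95 to -0.23) and 0.53 for BMS961+BMS641 (0.00 to 0.91), none of them past 2-fold. HOXA3 differed little: it was detected in 31.5%, 36.4%, 30.1% and 32.3% of spots, at 38.3, 48.0, 56.0 and 33.1 ppm. The quadrant ranges of HOXA3 overlapped in all 4 sections.

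The remaining genes of groups 1 to 4 were low except HOXD1 in ATRA. HOXD1, a gene of sensory neurons and early hindbrain in the mouse, was detected in 5.25% of VitaminA spots (3.55% to 7.46%), 20.4% of ATRA spots (17.2% to 23.9%), 2.56% of BMS753 spots (1.33% to 4.43%) and 2.74% of BMS961+BMS641 spots (1.32% to 4.98%). Its level was 1.35, 10.6, 1.92 and 1.11 ppm. As with HOXB3, the lowest ATRA quadrant, at 13.9% of spots, stood above every quadrant of the other sections. The log2 ratio to VitaminA was 2.31 (1.62 to 3.15), and that of BMS753 to ATRA was -1.99 (-3.27 to -0.72). HOXB1, HOXA2, HOXB2 and HOXC4 were each detected in at most 7.46% of spots in any section. HOXB1, the rhombomere 4 gene, reached a deposited log2 ratio of 1.47 in BMS753 against VitaminA, but was detected in only 1.81% of VitaminA and 1.92% of BMS753 spots, and with the lowest class at 0 its log2 ratio was 0.51.

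Promoters of HOXD1, HOXD3 and HOXD12 are shown because these members of cluster D had unlike patterns over the sections, HOXD1 with its highest share of spots in ATRA and the other two theirs with the agonist pair. The windows are from RefSeq on GRCm38.p6, plus strand, and run from 250 bases before the annotated start to 50 bases after it. HOXD1 lies at chr2:74762730-74763029, HOXD3 at chr2:74711743-74712042 and HOXD12 at chr2:74674763-74675062. Capitals mark the hexamer AGGTCA, bound by RARs and other nuclear receptors, on either strand.
HOXD1: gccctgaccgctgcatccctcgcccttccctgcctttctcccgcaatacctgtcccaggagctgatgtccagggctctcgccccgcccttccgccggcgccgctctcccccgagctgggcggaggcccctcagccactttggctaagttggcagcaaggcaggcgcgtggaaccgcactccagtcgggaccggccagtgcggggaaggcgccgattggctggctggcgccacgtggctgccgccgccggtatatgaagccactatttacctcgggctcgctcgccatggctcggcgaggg
HOXD3: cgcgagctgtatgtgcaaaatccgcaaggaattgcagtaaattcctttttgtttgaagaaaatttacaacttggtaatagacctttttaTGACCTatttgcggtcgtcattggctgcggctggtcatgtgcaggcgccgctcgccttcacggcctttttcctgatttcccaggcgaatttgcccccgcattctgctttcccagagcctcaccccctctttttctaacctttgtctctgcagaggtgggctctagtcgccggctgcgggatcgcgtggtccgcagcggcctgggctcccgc
HOXD12: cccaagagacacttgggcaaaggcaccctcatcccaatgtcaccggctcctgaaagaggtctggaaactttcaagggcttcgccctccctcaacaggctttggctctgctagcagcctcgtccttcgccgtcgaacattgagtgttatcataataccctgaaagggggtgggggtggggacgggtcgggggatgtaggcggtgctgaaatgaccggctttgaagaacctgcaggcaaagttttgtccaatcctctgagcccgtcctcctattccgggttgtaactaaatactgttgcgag

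The HOXD3 window held 1 match, on the minus strand, and the HOXD1 and HOXD12 windows held none. Of 24 windows of 22 Hox genes in the table, 7 held AGGTCA, those of HOXA5, HOXB4, HOXC4, HOXD3, HOXD4, HOXD8 and HOXD10, against 16.3% of all 32851 windows. The pair of hexamers 5 bases apart, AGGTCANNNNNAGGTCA, was in 0 of the Hox windows and in 0.00913% of all windows. TGATNNAT, a site bound by Hox proteins together with Pbx, was in 4 Hox windows, those of HOXA2, HOXB1, HOXB8 and HOXD11, and in 8.85% of all windows. Both strands were searched. The table holds no window for HOXB3, and a match or its absence says only which letters stand in a window.

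The central groups, 5 to 8, mark the lower hindbrain and the cervical to thoracic cord. HOXA5, HOXA6, HOXB5, HOXB6 and HOXD8 of these groups had no row, so the groups as a whole cannot be ranked. HOXB5OS, whose span holds HOXB5 and HOXB6, was detected in 59.8% of VitaminA, 30.2% of ATRA, 65.9% of BMS753 and 65.5% of BMS961+BMS641 spots. The 6 listed central genes, as a set, were most often detected in VitaminA. Of these 6, 5 reached 5% of spots for VitaminA, 1 for ATRA, 2 for BMS753 and 2 for BMS961+BMS641. Over all listed genes the shares reaching 5% of spots were 70.1%, 61.0%, 64.5% and 68.4%. At least 1 of the 6 was detected in 48.7%, 17.4%, 21.1% and 31.0% of spots. HOXB8 was the most often detected, in 26.8% of VitaminA spots (23.2% to 30.7%), 9.78% of ATRA spots (7.51% to 12.5%), 12.2% of BMS753 spots (9.34% to 15.5%) and 15.1% of BMS961+BMS641 spots (11.6% to 19.2%). Its level was 22.4, 6.64, 9.82 and 7.78 ppm. The log2 ratio to VitaminA was -1.61 for ATRA (-2.37 to -1.16), -1.11 for BMS753 (-1.75 to 0.13) and -1.41 for BMS961+BMS641 (-2.21 to -0.64), so VitaminA stood above all 3 ligand sections. HOXB7 was detected in 8.70%, 4.05%, 5.54% and 9.59% of spots, and the quadrant ranges of VitaminA and the pair overlapped.

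HOXC6 and HOXC8 show what the lowest class does to a level. Both stand late in the gene order. HOXC6 had deposited levels of 12.2 ppm for VitaminA, 8.20 ppm for ATRA, 16.5 ppm for BMS753 and 10.6 ppm for BMS961+BMS641, yet was detected in 9.24%, 1.18%, 0.853% and 2.47% of spots. With the lowest class at 0 its levels were 8.58, 0.483, 1.75 and 2.27 ppm. The order of the sections thus changed, from BMS753 as the highest to VitaminA as the highest. HOXC8 behaved alike, with 9.06%, 2.53%, 1.71% and 3.84% of spots, deposited levels of 14.5, 10.2, 16.3 and 11.5 ppm, and 11.05, 2.74, 1.42 and 3.35 ppm with the lowest class at 0.

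**Figure D3:**
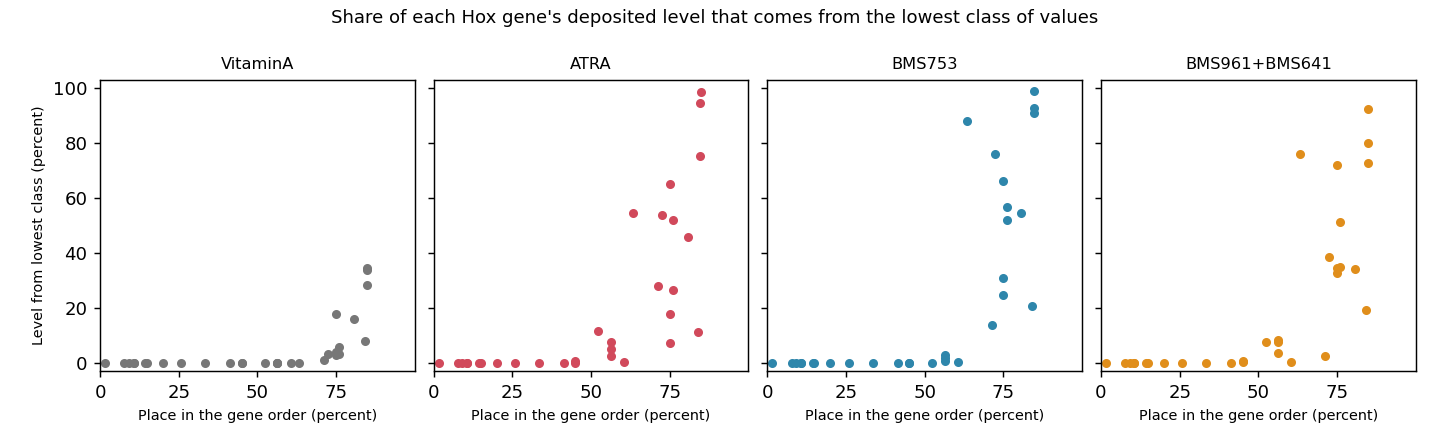
Percent of a Hox gene's deposited level that comes from the lowest class of values (y axis) against the gene's place in the order of the table (x axis), one panel per section and one point per gene. Genes late in the order have the highest shares, up to 98.7% for HOXD9 in BMS753.

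Over all 31 genes, 6.00% of the summed deposited level came from the lowest class for VitaminA, 12.1% for ATRA, 30.6% for BMS753 and 16.8% for BMS961+BMS641. The number of Hox genes whose level came mostly from that class was 0, 7, 9 and 6. The posterior gene HOXD9, a gene of the thoracic and lumbar cord and the limbs, was an extreme case. It was detected in 7.25% of VitaminA spots, 0.675% of ATRA spots, 0.426% of BMS753 spots and 1.92% of BMS961+BMS641 spots. Its deposited levels were 12.1, 7.99, 15.5 and 9.46 ppm, but 8.37, 0.122, 0.232 and 0.792 ppm with the lowest class at 0.

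Among the posterior groups, 9 to 13, which pattern the lumbar to tail region, the limbs and the genital tract, HOXD12 stood out. HOXD12 is a gene of the distal limb. It was detected in 8.33% of VitaminA spots (6.17% to 11%), 7.76% of ATRA spots (5.73% to 10.2%), 7.46% of BMS753 spots (5.25% to 10.2%) and 47.1% of BMS961+BMS641 spots (41.9% to 52.4%). Its level was 8.32, 5.39, 16.9 and 49.2 ppm. The 3 sections given vitamin A or a ligand at 1 µM were close to each other in detection, and every quadrant of BMS961+BMS641, the lowest at 34.4%, stood above every quadrant of theirs, the highest at 18.1%. The log2 ratio to VitaminA was 2.43 (1.87 to 3.03), and 2.95% of all genes compared had a higher ratio. HOXD12 was among the 1000 highest genes in 5.48% of spots of that section and in at most 1.07% elsewhere. It is also the section in which the epithelial markers summed to 1586 ppm, and their part in the HOXD12 value was not tested.

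Its neighbours in cluster D did not all share the pattern. HOXD11, a gene of the limb and kidney, was detected in 28.1% of VitaminA spots, 13.5% of ATRA spots, 13.01% of BMS753 spots and 19.2% of BMS961+BMS641 spots. Its level was 17.5, 8.11, 5.38 and 7.27 ppm, and its log2 ratio to VitaminA was -1.03 for ATRA, -1.54 for BMS753 and -1.16 for BMS961+BMS641. HOXD10 was detected in 1.99%, 0.675%, 1.28% and 9.86% of spots, and so was also highest with the pair. HOXD13 was detected in 2.36%, 0.506%, 2.13% and 0.548%. The spans of HOXD10 and HOXD11 overlap, so reads there may be divided between them.

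HOXA10, a gene of the lumbar cord and the uterus, was detected in 12.9% of VitaminA spots, 22.9% of ATRA spots, 9.59% of BMS753 spots and 8.77% of BMS961+BMS641 spots. Its level was 11.5, 27.8, 16.6 and 7.55 ppm. ATRA was the highest section, and its log2 ratio to VitaminA was 1.21 (0.47 to 1.96). HOXA13, a gene of the hindgut and limb, was detected in 7.43%, 12.98%, 5.97% and 7.12% of spots, again most often in ATRA, at a log2 ratio of 0.66 that did not pass 2-fold. HOXA11 was detected in 8.33%, 6.75%, 5.12% and 14.5% of spots. HOXC9 was similar in all sections, at 14.1%, 11.3%, 11.5% and 14.5%. HOXB9 was detected in 5.98%, 2.70%, 7.68% and 7.40%, and HOXC10 in 6.52%, 6.58%, 4.05% and 8.77%.

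The 13 Hox genes that never reached both 5 ppm and 5% of spots in one section ranged from 0.181% to 11.4% of spots in VitaminA, from 0.169% to 7.93% in ATRA, from 0.213% to 7.46% in BMS753 and from 0.274% to 9.86% in BMS961+BMS641. The highest of them was HOXC13 in VitaminA and ATRA, HOXC4 in BMS753 and HOXD10 in BMS961+BMS641.

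**Figure D4:**
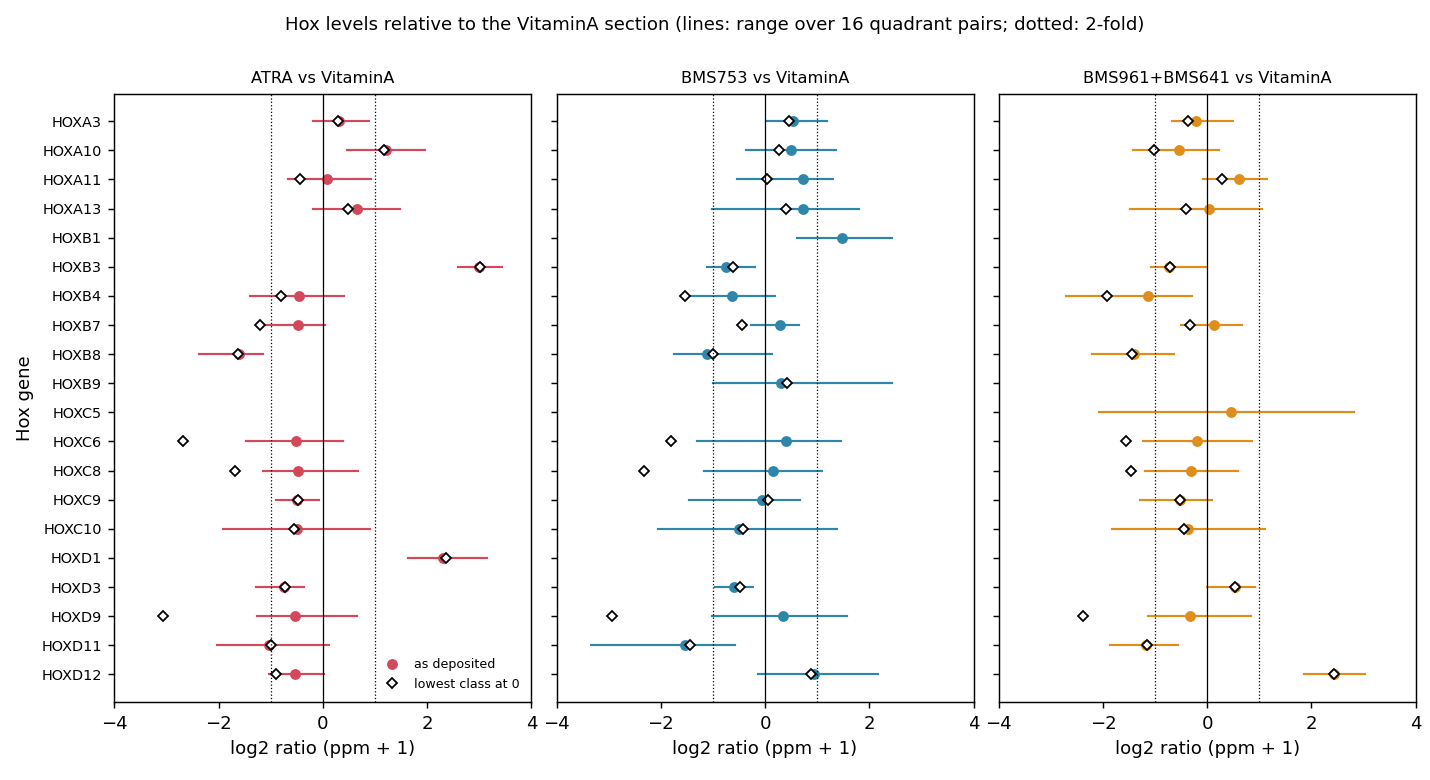
log2 ratio of each ligand section to VitaminA (x axis) for the Hox genes compared (y axis), as deposited (filled points, with lines for the range over 16 quadrant pairs) and with the lowest class at 0 (open diamonds). Dotted lines mark 2-fold. Points and diamonds lie close together for HOXB3, HOXB8, HOXD1 and HOXD3 and part for HOXC6, HOXC8 and HOXD9. For HOXD12 they are close in BMS961+BMS641 (2.43 in both) and apart in ATRA (-0.54 and -0.90).

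Counted where one or both sections reached 5 ppm, few Hox genes passed 2-fold (log2 ratio of 1 or more on the scale of ppm plus 1). Of 17 compared between ATRA and VitaminA, 3 were higher in ATRA (HOXA10, HOXB3 and HOXD1), where 8.60% of all genes compared were, and 2 were lower (HOXB8 and HOXD11), where 22.9% were. Of 18 between BMS753 and VitaminA, 1 was higher (HOXB1), against 17.7% of all genes, and 2 lower (HOXB8 and HOXD11), against 10.0%. Of 17 between BMS961+BMS641 and VitaminA, 1 was higher (HOXD12), against 10.2% of all genes, and 3 lower (HOXB4, HOXB8 and HOXD11), against 19.9%. The median log2 ratio of the Hox genes was -0.47, 0.29 and -0.31, beside -0.33, 0.31 and -0.25 over all genes compared. On the deposited levels the Hox genes as a set thus lay near the shift of all genes.

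With the lowest class at 0 more Hox genes, and also a larger share of all genes compared, were lower in each ligand section. In ATRA, 3 of 18 were higher and 6 lower, against 9.58% and 31.9% of all genes. In BMS753, 0 of 18 were higher and 7 lower, against 13.9% and 12.6%, and in BMS961+BMS641, 1 of 17 was higher and 7 lower, against 10.9% and 29.0%. The medians were then -0.64, -0.46 and -0.71 for the Hox genes and -0.60, 0.14 and -0.51 for all genes. In BMS753 the Hox genes as a set thus lay below the shift of all genes on this scale, and in ATRA they lay near it. HOXB8, HOXC6, HOXC8, HOXD9 and HOXD11 were past 2-fold lower in all 3 ligand sections on this scale. The share of all genes lower in all 3 is not given here, so this overlap cannot be called particular to Hox genes. All 3 comparisons share the VitaminA section.

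By cluster, the balance moved with single genes. Cluster B held 22.2% of the summed Hox level for VitaminA, 47.8% for ATRA, 17.1% for BMS753 and 12.6% for BMS961+BMS641, and HOXB3 was its most often detected gene in each. Cluster D held 36.4%, 18.6%, 29.4% and 53.4%, with HOXD3 as its most often detected gene in each. Cluster A held 23.8%, 24.3%, 34.8% and 19.6%, and cluster C, in which HOXC9 was the most often detected, held 17.6%, 9.36%, 18.8% and 14.4%. Cluster C, with the lowest class at 0, held 15.9%, 5.79%, 11.6% and 10.3%, so its highest share passed from BMS753 to VitaminA, and cluster D held 37.3%, 18.5%, 34.0% and 60.5%. The 9 listed genes of groups 1 to 4 held 48.1%, 69.6%, 45.6% and 50.4%. With the lowest class at 0 they held 49.9%, 76.2%, 55.9% and 56.1%, so BMS753 passed from below VitaminA to above it. The 6 of groups 5 to 8 held 19.8%, 8.25%, 18.3% and 13.1%, and with the lowest class at 0 18.1%, 3.86%, 8.70% and 7.85%. The 16 of groups 9 to 13 held 32.1%, 22.2%, 36.0% and 36.5%. No section lacked posterior genes: at least 1 of these 16 was detected in 72.1%, 58.7%, 48.2% and 77.8% of spots. Such a share rises with the number of genes counted, and their median single share was 7.25%, 5.31%, 4.05% and 7.26%.

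Of 9 other transcripts of the clusters, 5 could be compared with VitaminA. In ATRA 0 were past 2-fold higher and 2 lower, against 8.60% and 22.9% of all genes compared. In BMS753 2 were higher and 1 lower, against 17.7% and 10.0%. In BMS961+BMS641 1 was higher and 1 lower, against 10.2% and 19.9%. HOXA11OS, which overlaps HOXA11 on the other strand, was detected in 66.3% of VitaminA spots, 18.2% of ATRA spots, 9.59% of BMS753 spots and 22.2% of BMS961+BMS641 spots, at 116.7, 17.1, 11.2 and 28.3 ppm. Its log2 ratio to VitaminA was -2.70 (-3.94 to -1.58), -3.27 (-4.26 to -2.05) and -2.01 (-3.17 to -0.83). VitaminA was thus far above the rest. HOXA11 itself had its highest share of spots with the agonist pair, at 14.5%, and its highest deposited level in BMS753, at 16.4 ppm beside 15.01 ppm with the pair. These levels were 8.65 and 10.6 ppm with the lowest class at 0. HOXB5OS, whose span covers HOXB5 and HOXB6, was detected in 59.8%, 30.2%, 65.9% and 65.5% of spots, at 57.8, 18.6, 150.8 and 73.6 ppm, and so was lowest in ATRA. HOTAIRM1, a transcript at the 3′ end of cluster A, was detected in 13.04%, 8.77%, 17.1% and 51.8% of spots, at 6.49, 3.75, 12.1 and 41.0 ppm. Its log2 ratio between BMS961+BMS641 and VitaminA was 2.49 (1.76 to 3.48), close to the 2.43 of HOXD12 in the same comparison.

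Within a section, spots with more genes detected held more Hox genes. A spot held a median of 3, 3, 2 and 3 Hox genes in VitaminA, ATRA, BMS753 and BMS961+BMS641, and at most 10, 13, 11 and 14. The number per spot followed the number of all genes detected there, with Spearman correlations over spots of 0.620, 0.732, 0.673 and 0.745. In ATRA, HOXB3 was detected in 56.2% of the shallower spots and 87.2% of the deeper ones, split at the median depth. In BMS961+BMS641, HOXD12 was detected in 28.4% and 65.9%, and HOXD3 in 54.1% and 92.9%. Moran's I, which is near 0 where neighbouring spots are unrelated, was 0.139 for HOXB3 in ATRA with 8 neighbours a spot and 0.0706 with 4. With 8 neighbours, 0.550% of genes in that section had a higher value, beside a median over genes of 0.0468. For HOXD3 in VitaminA it was 0.000735. The depth itself had a Moran's I of 0.439, 0.448, 0.545 and 0.330.

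**Figure D5:**
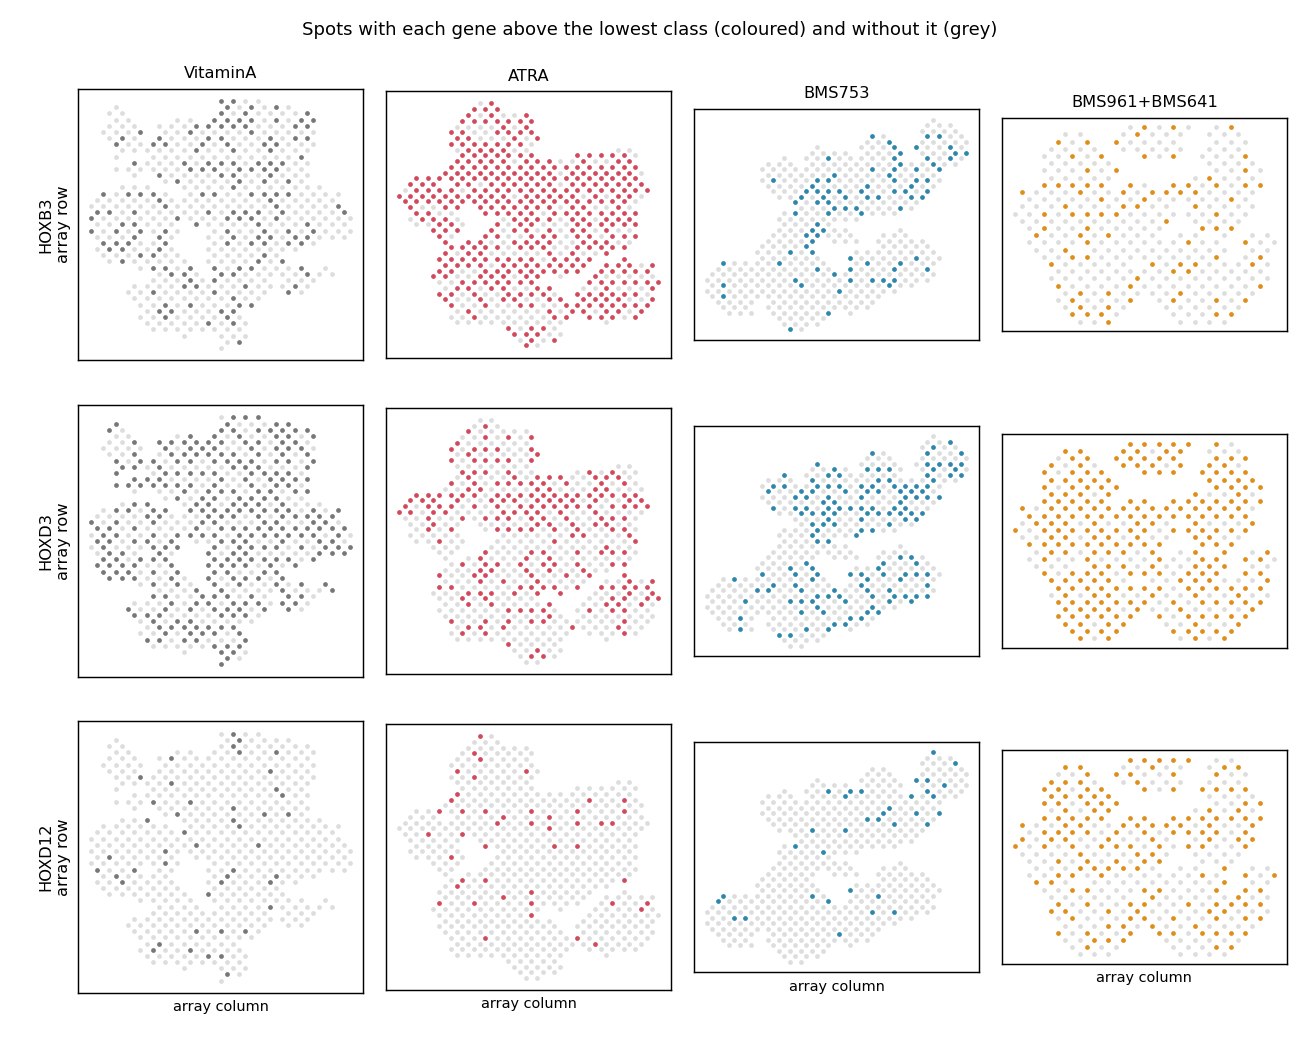
Spots of each section at their array column (x axis) and row (y axis), coloured (dark grey for VitaminA) where HOXB3, HOXD3 or HOXD12 (rows of panels) stood above the lowest class and light grey elsewhere. HOXB3 fills most of the ATRA section (71.7% of spots) and is scattered in the others, and HOXD12 is scattered over 47.1% of the BMS961+BMS641 spots.

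The 4 quadrants of a section differed with their depth. HOXB3 in ATRA was detected in 58.9%, 82.6%, 68.2% and 78.6% of spots in quadrants whose median depth was 2642.5, 3544, 3254 and 4052 genes, so the shallowest quadrant had the lowest share. HOXD12 in BMS961+BMS641 was detected in 38.6%, 67.9%, 34.4% and 50.6% of spots at median depths of 3905, 5526.5, 3658 and 4871 genes. That section was in 2 pieces that did not touch, of 342 and 23 spots, with HOXD12 in 46.8% and 52.2% of their spots. The other sections were each 1 piece.

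For pairs of Hox genes, the number of spots that held both was set against the number that their shares and the depth of the spots give. Over genes detected in at least 10% of spots, the observed number of shared spots over the number expected within 5 classes of depth had a median of 0.886 for 5 pairs of the same cluster in VitaminA. It was 1.05 for 6 pairs of ATRA, 1.11 for 2 pairs of BMS753 and 0.976 for 5 pairs of BMS961+BMS641. For pairs of different clusters the medians were 1.01, 1.05, 1.05 and 1.02. Single pairs ran from 0.750 to 1.55, and HOXC9 with HOXD11, singled out after its values were seen, had 1.27, 1.55, 1.22 and 1.02. Without regard to depth the medians reached 1.62, for pairs of the same cluster in BMS753. The 3 group 3 genes were all present in 6.52%, 16.7%, 5.76% and 10.1% of spots.

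Known regulators and partners of the clusters were measured beside them. Their counts past 2-fold stand against the shares of all genes compared, which were 8.60% higher and 22.9% lower in ATRA, 17.7% and 10.0% in BMS753, and 10.2% and 19.9% in BMS961+BMS641. With so few genes per list, several counts lie near these shares. Of 15 upstream regulators looked for, 14 had a row. Past 2-fold against VitaminA, 0 of 11 compared were higher and 5 lower in ATRA, 2 of 11 higher and 3 lower in BMS753, and 2 of 12 higher and 3 lower in BMS961+BMS641. The largest were CDX1, which activates central and posterior Hox genes, at 55.5 ppm in VitaminA and 5.17, 9.90 and 3.45 ppm in the ligand sections, and CDX4, of the same family, at 4.78, 7.91, 13.5 and 70.4 ppm. CDX1 was thus highest in VitaminA and CDX4 highest with the pair. A link of these genes to the Hox values was not tested. CDX2 was highest in BMS753, at 24.0 ppm against 6.08 ppm in VitaminA. EGR2, a rhombomere gene, was detected in 16.3%, 3.88%, 4.05% and 68.8% of spots, and so was also highest with the pair. Of 13 genes that flank the clusters, 12 had a row: 0 of 11 compared were higher and 3 lower in ATRA, 4 of 12 higher and 2 lower in BMS753, and 1 of 11 higher and 5 lower in BMS961+BMS641.

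The 9 cofactor genes of the Meis, Pbx and Pknox families, whose proteins bind DNA with Hox proteins, had a median share of spots of 63.2%, 45.0%, 45.2% and 55.1%. Of them 8, 8, 6 and 8 reached 20% of spots, where 35.3%, 28.6%, 29.9% and 37.7% of all listed genes did. Past 2-fold against VitaminA, 1 was higher (PKNOX1, log2 ratio 1.04) in ATRA, none in either direction in BMS753, and in BMS961+BMS641 1 was higher (PKNOX2, 1.75) and 1 lower (PBX4, -1.11), all of 9 compared. Among 11 chromatin regulators of the clusters, 1 was higher and 6 lower in ATRA, 0 and 4 in BMS753, and 0 and 3 in BMS961+BMS641, where 22.9%, 10.0% and 19.9% of all genes compared were lower. EED, a Polycomb subunit, had the lowest ratio in each, at -5.10, -5.81 and -5.34.

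Genes of the forebrain and midbrain, where Hox genes are normally off, were present beside them. Of 12 anterior homeobox and forkhead genes, 10, 7, 7 and 7 reached 5% of spots in the 4 sections. Over all listed genes 70.1%, 61.0%, 64.5% and 68.4% did. Of 8 anterior genes compared with VitaminA, 1 was higher and 2 lower in ATRA, against 8.60% and 22.9% of all genes compared. In BMS753 1 was higher and 2 lower, against 17.7% and 10.0%. In BMS961+BMS641 0 were higher and 2 lower, against 10.2% and 19.9%. EN1, a gene of the midbrain and hindbrain boundary, had the lowest ratio, at 86.8 ppm in VitaminA and 3.60, 18.4 and 4.59 ppm in the ligand sections. Of 9 hindbrain and spinal genes, 4 could be compared with VitaminA. For ATRA, 1 was higher (PAX3) and 1 lower (PAX7, log2 ratio -1.64), beside 8.60% and 22.9% of all genes compared. For BMS753, 0 were higher and 1 lower (PAX7, -1.33), beside 17.7% and 10.0%. With the agonist pair, 0 were higher and 1 lower, beside 10.2% and 19.9%. The median log2 ratio of the 4 genes was -0.14 for ATRA and -0.05 for BMS753. It was lowest with the pair, at -0.50. PAX3, a dorsal neural tube and neural crest gene, was at 74.8 ppm for VitaminA, 727.0 ppm for ATRA, 74.5 ppm for BMS753 and 50.9 ppm for BMS961+BMS641. PAX3 was thus highest in ATRA, and a link to the Hox values there was not tested.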

How the data were processed

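The deposited tables hold 1 signal value for each gene in each spot (build mm9, per the submitters' processing notes), quantile normalised by the authors over the spots of a section, as the values themselves show: each spot holds the same sorted values times its own factor. The aligner, the counting rule and the use of strand were not stated there. In all but 1 spot of each section no zero follows the first gene of the lowest class, so values in that class follow gene order. Simulated sections built this way were used to check the steps. Levels are mean signals in ppm, log2 ratios were taken after adding 1 ppm, where one or both sections reached 5 ppm, and the number past 2-fold is counted over all genes. Quadrants were split at the median x and then y. Neighbours are the 8 nearest grid spots. Values in every section are given for members of at least 5 ppm and 5% of spots in a section, others by range, and of other lists the 2 largest ratios per comparison. The fixed result was the deposited level, and detection was planned beside it. Alternatives changed the lowest class, scaling, pseudocount, filter, threshold and spots used. Members and lists were chosen with earlier results of these data known. Of the 39 Hox genes of the mouse, 1 is not reported here. Spans and overlaps come from RefSeq (GRCm38.p6), not from the files' build. Scripts used scipy 1.17.1, pandas 2.3.3, numpy 2.4.6 and matplotlib 3.10.9 under Python 3.11.15. Depth, 3330 to 4659 median genes per spot, limits detection of sparse members.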

Additional observations from a re-analysis of the deposited data

How the results depend on the processing

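No paired analysis was possible because each treatment has 1 section. No value past 2-fold on the deposited levels changed sign under any alternative run. HOXC6, HOXC8 and HOXD9 were past 2-fold lower in BMS753 than VitaminA with the lowest class at 0. Their deposited levels were higher in BMS753 (16.5, 16.3 and 15.5 ppm) than in VitaminA (12.2, 14.5 and 12.1 ppm), so these calls reverse between the scales. The number of Hox genes past 2-fold higher in ATRA than VitaminA stayed within 1.5 times of 3 under every alternative for which a value was computed, and the other counts moved. Lower in ATRA (2 as reported), the count was 6 with the lowest class at 0, 5 for the share of spots, 10 for the class index, 1 with a pseudocount of 5 ppm, 6 with no filter, 1 with a filter of 20 ppm, 1 relative to the median of all genes and 0 at 4-fold. Higher in BMS753 (1 as reported), it was 0 with the lowest class at 0, without scaling, for the share of spots, with a pseudocount of 5 ppm, with a filter of 20 ppm and at 4-fold, and 2 with a pseudocount of 0.1 ppm or no filter. Lower in BMS753 (2 as reported), it was 7 with the lowest class at 0, 4 without scaling, 1 with each spot scaled to the same sum, 6 for the share of spots, 5 for the class index, 1 with a pseudocount of 5 ppm, 4 with no filter, 1 with a filter of 20 ppm and 0 at 4-fold. Higher in BMS961+BMS641 (1 as reported), it was 3 without scaling, 2 for the class index and 3 with no filter. Lower there (3 as reported), it was 7 with the lowest class at 0, 0 without scaling, 9 for the class index, 1 with a pseudocount of 5 ppm, 5 with no filter, 1 with a filter of 20 ppm, 1 relative to the median and 0 at 4-fold. Leaving out 1 quadrant gave 3 to 3 and 1 to 3 (ATRA, higher and lower), 1 to 2 and 1 to 3 (BMS753), and 1 to 2 and 2 to 4 (BMS961+BMS641). The cause was not tested beyond what each alternative changes by its construction. The class index, which replaces a value by its rank among tied runs, was chosen after seeing the data.

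The summed Hox level was 379.0 ppm (VitaminA), 486.5 (ATRA), 360.0 (BMS753) and 409.6 (BMS961+BMS641) without the 10 genes of most signal, 249.4 in BMS753 and 298.3 in BMS961+BMS641 with the lowest class at 0, and 393.9 in VitaminA, 499.4 in ATRA and 389.7 in BMS961+BMS641 for the class index. The share of group 3 with the lowest class at 0 was 43.6% (VitaminA), 70.6% (ATRA), 48.9% (BMS753) and 52.6% (BMS961+BMS641). Counted in detections it was 35.0%, 48.6%, 40.2% and 38.3%. For the class index it was 68.9% (ATRA), 46.1% (BMS753) and 54.0% (BMS961+BMS641), and with each spot scaled to the same sum 39.7% (BMS753). Of the single log2 ratios, 26 of 50 moved by more than the quadrant spread for the share of spots, 21 for the class index, 19 without scaling, 18 with the lowest class at 0 and 8 relative to the median of all genes. At most 3 moved under each other alternative run, and 0 when a quadrant was left out. Detection of genes in few spots is limited by depth, lowest in BMS753 and ATRA.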
